A study of Mus musculus with 2 samples.

Results

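Fatty acid and triglyceride synthesis was examined in mouse liver RNA through 10 genes: Acly, Acaca, Fasn, Scd1, Scd2, Elovl6, Me1, Thrsp, Gpam and Srebf1. A gene was read where the array's annotation assigned at least 1 probe set to it alone. This left 13 probe sets of 9 genes, out of 8251 named genes and 12488 probe sets on the array. Acaca, the cytosolic acetyl-CoA carboxylase gene, had none and was not analysed here. The 9 genes are called the lipogenic genes below. The study holds 1 group, total RNA titled liver that was bought from Clontech, measured once on each of 2 single-colour Affymetrix arrays, called replicates 1 and 2. The source field names spleen for both samples, and the group follows the titles. Strain, age, sex, feeding state, the number of animals behind the RNA and any treatment are not stated in the labels. Whether the arrays share 1 RNA extract is not stated either, so the spread between them may be purely technical.

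Hepatocytes turn surplus carbohydrate into fat. Citrate leaves the mitochondrion and is split into cytosolic acetyl-CoA, which is carboxylated and condensed into palmitate with reducing power from NADPH. Palmitate is then elongated, desaturated and joined to glycerol 3-phosphate to make triglyceride, which is stored in droplets or exported in very low density lipoprotein. In liver the genes of this route are known targets of the transcription factor SREBP-1c, which insulin induces, and of ChREBP, which responds to glucose.

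Of the 9 lipogenic genes, 7 were above background on both arrays: Acly, Fasn, Scd1, Me1, Thrsp, Gpam and Srebf1. Elovl6 and Scd2 were above it on neither. As background served 94 genes typical of muscle, retina, testis and brain, whose 95th percentile was a signal of 483.1 for replicate 1 and 484.2 for replicate 2. By the same rule 29.3% of all genes were above background. A percentile gives the share of the array's genes with a lower signal. The median percentile of the lipogenic genes was 91.6 for replicate 1 and 92.0 for replicate 2, and their median signals were 2065 and 2134. All genes had median signals of 228.8 and 219.2. A signal also depends on the sequence of its probes, so a percentile places a probe set in the array's signal and does not rank transcripts of different genes.

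Marker genes were read as a check of the tissue, and their counts stand beside the 29.3% of all genes above background on both arrays. In bulk RNA, fewer cells of a type and less RNA per cell cannot be told apart. All 16 measured hepatocyte markers were above background on both arrays, from Alb (albumin, 65213 ± 829.6, SD, n = 2 arrays) to the fibrinogen chain Fga (4705 ± 187.5). The call for Apoa2 rested on its brighter set (19482 and 19735), and its other set gave 170.7 and 81.5, below background on both arrays. Of 20 lymphoid and spleen markers 3 were above it, and the list's median percentile was 21.4. Those were the kinase Zap70 (857.4 ± 32.7), Ighm and Ptprcap. The call rested on 1 of 3 probe sets for Zap70, 1 of 16 for Ighm and a single set for Ptprcap, and the other sets of Zap70 and Ighm were below background on both arrays. The lowest marker was Cd8b1, a T cell co-receptor chain (12.4 ± 5.02). Of 12 macrophage and Kupffer cell markers 7 were above background, led by C1qc, a chain of complement component 1q (2763 ± 314.8), and the lowest was the scavenger receptor Marco (21.2 ± 3.39). Among the 7, C1qb, Csf1r and Lyz2 each had another set that was below background on both arrays. Because fat cells also run this route, adipocyte markers were read beside it. Of 10 measured, 2 were above background, and the summed signal of the 10 was 14498 on replicate 1 and 14465 on replicate 2. Most of that sum was Car3, a carbonic anhydrase that mouse hepatocytes also make (12743 ± 239.6). The other was Lep, the leptin gene, whose brighter probe set gave 1160 and 854.4 and whose other set gave 123.7 and 122.8. Adipoq, which encodes the adipocyte hormone adiponectin, gave 130.8 on replicate 1 and 120.7 on replicate 2, and the lowest marker, Retn, gave 22.5 ± 1.84. No adipocyte marker was listed at 0.

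**Figure D1:**
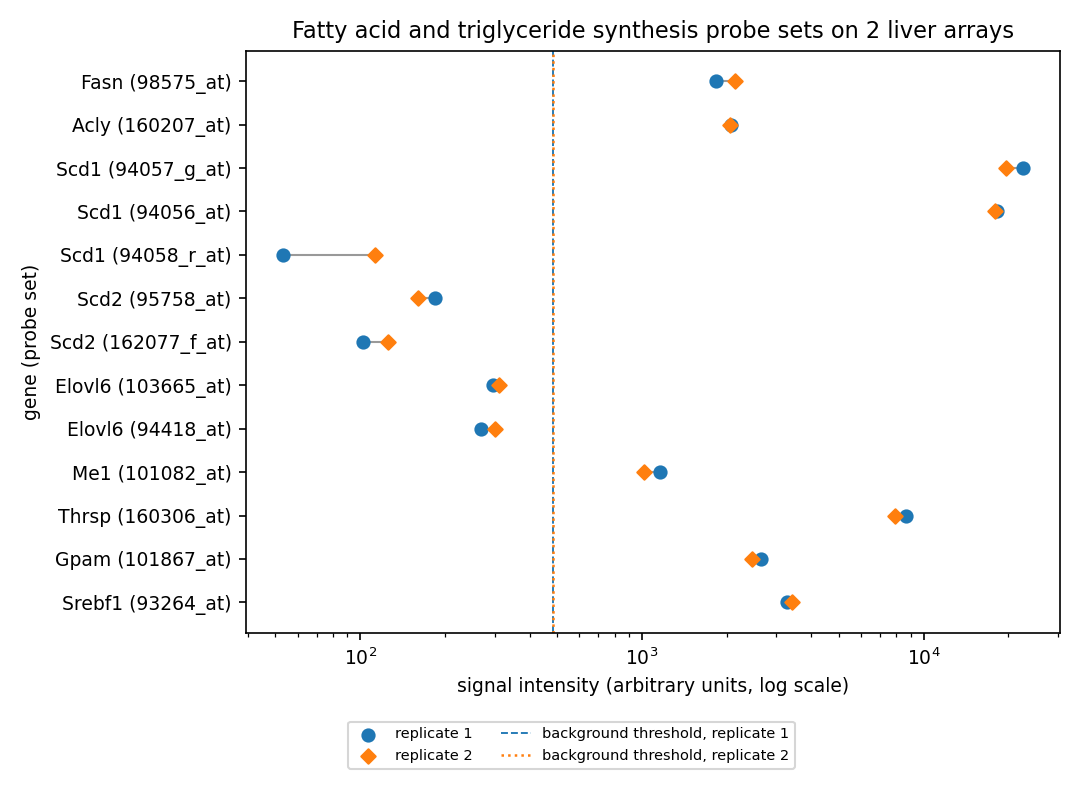
Signal intensity (log scale) of the 13 probe sets of the lipogenic genes, circles for replicate 1 and diamonds for replicate 2, with a grey line joining the 2 arrays and the background threshold of each array as a vertical line. The 8 probe sets to the right of the thresholds belong to 7 genes, and the 5 to the left are both sets of Elovl6, both sets of Scd2 and the r set of Scd1.

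The route starts with the supply of cytosolic acetyl-CoA and NADPH. Acly, ATP citrate lyase, splits citrate into acetyl-CoA and oxaloacetate. Its single probe set, 160207_at, gave 2065 on replicate 1 and 2060 on replicate 2, a mean of 2062 ± 3.68 (SD, n = 2) at percentile 91.6. The readings differed by a factor of 1.00, and were 4.27 and 4.25 times the threshold. Me1, the cytosolic malic enzyme, oxidises malate to pyruvate and yields NADPH. Its single set, 101082_at, gave 1160 and 1015 (1087 ± 103.1) at percentile 84.8, above background on both arrays.

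Fasn encodes the multifunctional synthase that builds palmitate from malonyl-CoA. Its probe set, 98575_at, gave 1830 on replicate 1 and 2134 on replicate 2 (1982 ± 214.6), at percentile 91.3. Of the 9 lipogenic genes it had the highest difference, with replicate 2 higher by a factor of 1.17. Thrsp, known as Spot 14, is a small acidic protein induced by thyroid hormone and carbohydrate that promotes lipogenesis. Its set, 160306_at, gave 8689 and 7932 (8310 ± 535.4), at percentile 97.9. Thrsp and Scd1 were the lipogenic genes past the 95th percentile on both arrays.

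Palmitate is modified by an elongase and by desaturases of the endoplasmic reticulum. Elovl6 lengthens C16 fatty acids to C18. Its sets 103665_at and 94418_at gave 295.0 and 269.1 on replicate 1 and 311.9 and 299.9 on replicate 2. All 4 readings were below the threshold, and the brighter set lay at percentile 57.7, above the median of the array but not distinguishable from background by the rule used. A gene below the threshold is not thereby shown to be silent.

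Scd1 and Scd2 encode stearoyl-CoA desaturases, which introduce the double bond that makes oleate and palmitoleate. Scd1 is the main form of adult mouse liver, and Scd2 is known mainly from brain and from liver before adulthood. Scd1 was read by 3 probe sets. The set 94057_g_at gave 22492 and 19559 (21026 ± 2074), and the set 94056_at gave 18169 and 17954 (18061 ± 152.5). The third set, 94058_r_at, gave 53.3 on replicate 1 and 112.8 on replicate 2, below the threshold on both. Thus 2 sets placed Scd1 in the top 1% of probe sets and the third at probe set percentiles 25.1 and 41.2. In the array maker's naming, suffix r marks a set for which some probe selection rules were dropped, and suffix g a set that shares probes with another set. Scd2 gave 184.1 and 160.8 in set 95758_at and 102.7 and 125.3 in set 162077_f_at, where suffix f marks probes shared by a sequence family. All 4 readings of Scd2 were below background. Because Scd1 and Scd2 were read by different probes, their signals do not give the ratio of the 2 transcripts.

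Gpam, the mitochondrial glycerol 3-phosphate acyltransferase, takes the first step of triglyceride assembly. Its set, 101867_at, gave 2648 and 2461 (2554 ± 131.9), at percentile 93.3. Srebf1 encodes the transcription factors SREBP-1a and SREBP-1c from alternative first exons. Its set, 93264_at, gave 3286 and 3407 (3346 ± 85.6), at percentile 94.6. Both genes were above background on both arrays. The annotation gives Srebf1 as a whole, so the signal was not divided between the 2 forms.

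Upstream sequences were set beside these values. RefSeq (GRCm38.p6) gave 12 windows of 250 bases upstream of the start sites of 8 of the 10 genes, and Scd1 and Scd2 had no entry. The windows were searched on both strands for 5 motifs. The sterol response element, which SREBPs bind, was searched as TCACNCCAC. The E-box, a site of USF and of other factors, was searched as CACGTG. The CCAAT box, a site of NF-Y, was searched by the letters of its name. A CCAAT box was found in 6 of the 12 windows, those of Fasn, Thrsp, Me1 (1 of 2), Gpam (1 of 2) and Srebf1 (2 of 3), against 33.8% of all 32851 windows. The GC box, a site of Sp1, was searched as GGGCGG and was found in 5 of the 12, against 32.7%. The sterol response element was found in 0 of the 12, against 1.05% of all windows, and the E-box in 0, against 6.02%. The TATA box, which marks many start sites used in a single tissue, was searched as TATAAA and was found in 0, against 12.4%. A match describes these letters only, and their absence from a window says nothing about the factor.

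The windows of Fasn and Thrsp are shown because each holds more than 1 CCAAT box, and that of Elovl6 because it holds none of the 5 motifs and belongs to a gene not above background. Each is written 5′ to 3′ along the gene's strand and ends at the base before the start site, with the CCAAT boxes of either strand in capitals. The windows lie at chr11:120824548-120824797 on the minus strand for Fasn, chr7:97417551-97417800 on the minus strand for Thrsp and chr3:129532136-129532385 on the plus strand for Elovl6.
Fasn: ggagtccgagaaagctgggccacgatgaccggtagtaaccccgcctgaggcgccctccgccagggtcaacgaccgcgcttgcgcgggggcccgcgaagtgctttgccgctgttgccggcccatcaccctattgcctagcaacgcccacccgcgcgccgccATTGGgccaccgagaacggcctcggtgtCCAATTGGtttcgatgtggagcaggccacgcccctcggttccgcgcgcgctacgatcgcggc
Thrsp: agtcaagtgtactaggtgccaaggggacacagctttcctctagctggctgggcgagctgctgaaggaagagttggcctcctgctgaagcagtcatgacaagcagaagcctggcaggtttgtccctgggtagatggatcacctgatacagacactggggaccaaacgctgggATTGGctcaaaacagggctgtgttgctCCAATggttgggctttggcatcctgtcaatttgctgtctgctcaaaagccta
Elovl6: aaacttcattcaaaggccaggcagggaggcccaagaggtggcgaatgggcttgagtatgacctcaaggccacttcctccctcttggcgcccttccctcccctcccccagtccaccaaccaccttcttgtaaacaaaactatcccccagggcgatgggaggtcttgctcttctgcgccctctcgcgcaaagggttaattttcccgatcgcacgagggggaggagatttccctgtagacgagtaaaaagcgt
The first bases of the Fasn matches lay 90, 62 and 59 bases before the start site, and those at 62 and 59 overlap. The Thrsp matches began 79 and 52 bases before it.

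**Figure D2:**
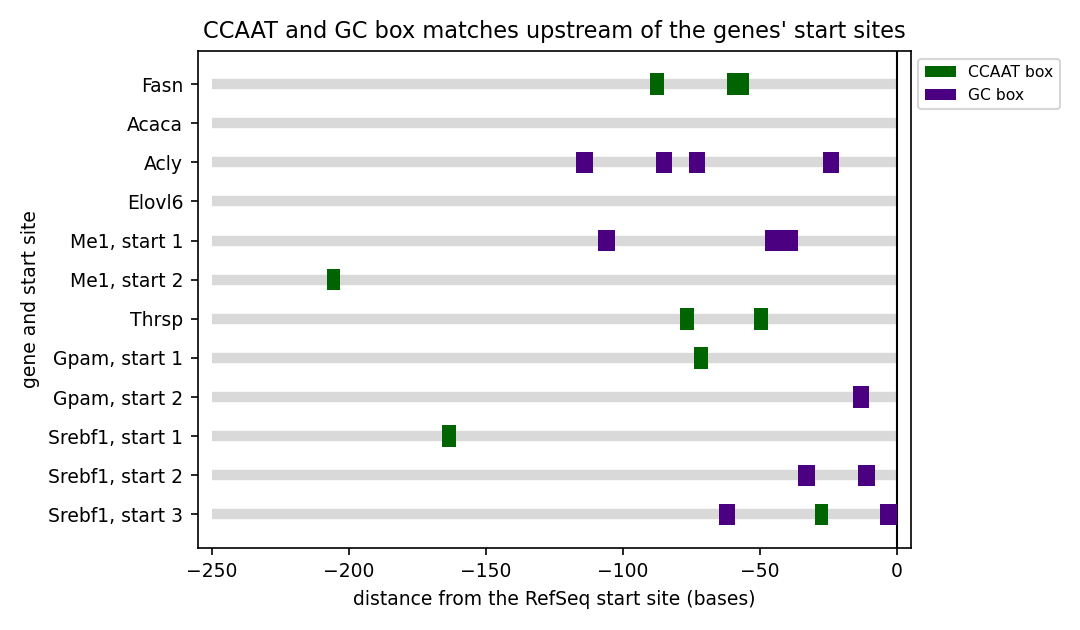
Positions of CCAAT box (green) and GC box (purple) matches in the 250 bases before each RefSeq start site, 1 row per window, in bases from the start site at 0. Matches lie in 10 of the 12 windows, and the windows of Acaca and Elovl6 hold none. Of all windows, 33.8% hold a CCAAT box and 32.7% a GC box. The share with either was not computed, so the count of 10 is no result about these genes.

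The rest of the route was read from 4 lists of genes that hold no lipogenic gene named above. These lists also hold genes that act against synthesis, such as Ces1d and Ppara described below. Their counts are therefore not of synthesis genes alone. Of their 111 genes, 75 were measured and 44 (58.7%) were above background on both arrays, beside 29.3% of all genes. Their median percentile was 81.4.

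Genes that supply precursors and reductant were mostly above background, 12 of 15. The 3 highest were Slc25a1, the citrate carrier of the mitochondrial membrane (3650 ± 148.9), Pdhb, a subunit of pyruvate dehydrogenase (2970 ± 260.3), and Idh1, the cytosolic isocitrate dehydrogenase that yields NADPH (2792 ± 396.9). The 3 not above background were the cytosolic malate dehydrogenase gene Mdh1, Dlat and Acss1. Acss1, a mitochondrial acetyl-CoA synthetase, was the lowest, with 65.9 on replicate 1 and 15.4 on replicate 2.

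Of 16 genes of fatty acid chain synthesis and editing, 11 were above background. The highest were Cyb5a, the cytochrome b5 that passes electrons to the desaturases (16959 ± 827.0), Elovl5, an elongase of polyunsaturated fatty acids (8108 ± 169.6), and Fads1, the delta-5 desaturase (4210 ± 289.4). Oxsm, the mitochondrial ketoacyl synthase, was the lowest at 26.8 ± 16.5. The elongases were read apart from each other, a choice made after their values were seen. Besides Elovl5, Elovl2 was above background (1996 ± 163.6, from a set of suffix r), whereas Elovl1 (345.5 ± 14.4) and Elovl3 (119.2 ± 16.4) were not. With Elovl6, 2 of the 5 elongase genes read here were therefore above background, beside 29.3% of all genes. So small a count is no result about elongases.

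Of 24 genes of glycerolipid assembly and storage, 12 were above background on both arrays. The highest were Ces1d, a carboxylesterase that mobilises stored triglyceride (14080 ± 748.6), Plin2, a lipid droplet coat protein (8783 ± 291.3), and Cideb, a droplet protein of hepatocytes (7255 ± 23.3). Ces1d has close copies in the genome, and its set of suffix i may not read it alone. Mogat2, a monoacylglycerol acyltransferase best known from intestine, was the lowest at 37.9 ± 11.1. Dgat1, which takes the last step of triglyceride synthesis, was above background on replicate 2 alone, with 463.0 on replicate 1 and 545.4 on replicate 2, and was named for that after its values were seen. Its other set, of suffix f, gave 106.8 and 71.7, below background on both arrays.

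Among 20 genes of transcription and sterol sensing, 9 were above background on both arrays and 3 on 1 array. The highest were Nr1h3, the liver X receptor alpha that induces Srebf1 (1879 ± 107.6), Akt2, a kinase of insulin signalling (1451 ± 110.7), and Ppara, the receptor that induces fatty acid oxidation (1406 ± 275.6). Insig1, which holds SREBP precursors in the endoplasmic reticulum, was the lowest. Its single set gave 33.0 on replicate 1 and 9.4 on replicate 2. Pparg, the adipocyte regulator, gave 132.7 ± 37.8 and was not above background. Srebf2, Scap, Insig2, Mlxipl and Nr1h2 were not analysed here.

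**Figure D3:**
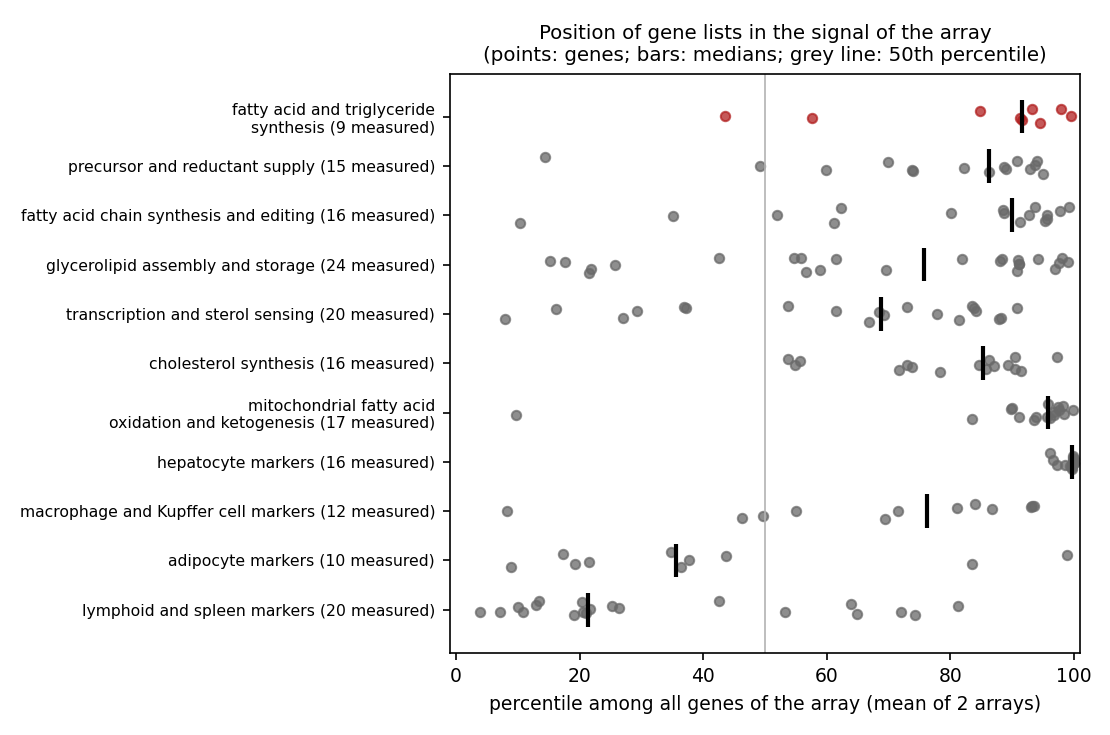
Percentile of each measured gene among all genes of the array (mean of both arrays), 1 row per list, with the lipogenic genes in red on top and a black bar at each list's median. The lipogenic genes have their median at 91.6 with Scd2 and Elovl6 apart on the left, hepatocyte markers crowd the right edge, and adipocyte and lymphoid markers have medians of 35.6 and 21.4.

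Cholesterol synthesis shares the SREBP regulators with the lipogenic genes, and mitochondrial oxidation runs the opposite route. Beside 7 of 9 lipogenic genes, 13 of 16 cholesterol synthesis genes and 16 of 17 genes of fatty acid oxidation and ketogenesis were above background on both arrays. The share of all genes was 29.3%. The median percentiles were 91.6 for the lipogenic genes, 85.2 for cholesterol synthesis and 95.8 for oxidation, and differences between these lists were not tested. The highest cholesterol genes were Fdps, farnesyl diphosphate synthase (6479 ± 315.6), Idi1 (2018 ± 51.2) and Ebp (1854 ± 301.6), and the lowest was Mvd (261.9 ± 52.5). The highest oxidation genes were the thiolase gene Acaa2 (34269 ± 1174), Cpt1a, the carnitine palmitoyltransferase that malonyl-CoA inhibits (10162 ± 788.5), and Acadm (9459 ± 83.7). Acadvl was the lowest, with 8.6 on replicate 1 and 42.6 on replicate 2. Its other set gave 35.8 and 9.2, also below background on both arrays and lower on replicate 2.

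The last question was how closely the 2 arrays agreed on the lipogenic genes. Differences are given as log2 of replicate 2 over replicate 1, less the median difference of the brighter 50% of probe sets, which was -0.01. None of the 9 genes differed by over 2-fold, against 14% of all genes and 0.0827% of the genes above background on both arrays. The differences ran from -0.20 for Scd1 to 0.23 for Fasn, with a median of -0.10, and that of all genes was -0.02. The sizes of the differences had a median of 0.13 for the lipogenic genes and 0.27 for all genes. As 7 of the 9 lie in the brightest 20% of genes on both arrays, this comparison is not at like signal. After that subtraction replicate 2 was higher for 4 of the 9 genes (Fasn, Elovl6, Srebf1 and, by under 0.01, Acly) and lower for 5. The deposited signals were higher on replicate 2 for 3 of the 9, without Acly. As the spread between arrays falls with signal, all genes were divided by mean signal into 10 groups of equal size. The SD of the log2 difference was 0.16 in the brightest group, which holds Scd1, Thrsp, Srebf1, Gpam, Acly and Fasn, and 0.24 in the next, which holds Me1. It was 0.44 in the group that holds Elovl6 and 0.57 in that of Scd2. The median size of the difference was 0.09 in the brightest group and 0.14 in the next. Of the 9 lipogenic genes, 4 had a difference smaller than the median size in their own group. The differences of 7 of the 9 genes were smaller than the SD of their group, and those of Scd1 and Fasn were larger. The share of all genes within the SD of their group was not computed, so this count is no result about the lipogenic genes. For Scd1 the probe sets did not give 1 value, since the difference was -0.20 in set 94057_g_at, -0.01 in set 94056_at and 1.09 in the dim set 94058_r_at. With 1 array on each side none of these differences has a replicate check.

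**Figure D4:**
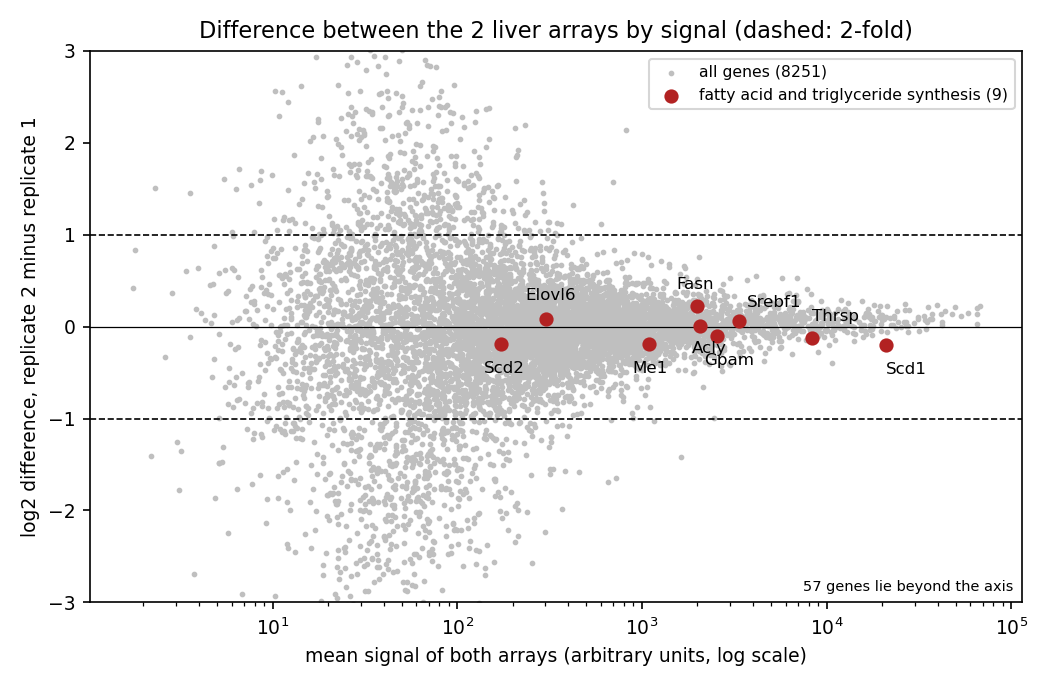
Log2 difference between the arrays (replicate 2 minus replicate 1) against mean signal (log scale), grey points for all genes and red points for the 9 lipogenic genes, with dashed lines at 2-fold. The red points lie between -0.20 and 0.23, within the 2-fold lines, and 57 genes lie beyond the axis.

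Of the 75 measured genes in the 4 lists of the rest of the route, 8 (10.7%) differed by over 2-fold between the arrays, against 14% of all genes, so the count is no result about these lists. Among these 8, Usf1, which encodes an E-box factor known to act on the Fasn promoter, was the one above background on both arrays. Of all 2419 genes that passed background on both arrays, 2 (0.0827%) differed that much. Usf1 is itself among those 2 and is named here for passing the cut, so that share is no measure of how unusual Usf1 is. Its brighter set gave 1565 on replicate 1 and 764.9 on replicate 2, a log2 difference of -1.03. Its other set, which was below background on both arrays, gave 371.6 and 476.6, a log2 difference of 0.36. Its 2 sets therefore differed between the arrays in opposite directions.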

How the data were processed

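Total RNA of 2 samples titled liver was measured on 1 array each. The deposited values are linear signal intensity per probe set; per the labels and the table, the authors' software, background correction and scaling are, in the sources used here, not given. With 2% of the sets trimmed from either end, both arrays had a mean of 499.8, as global scaling would give. Scanner files were not used here.

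The platform annotation named 1 gene for 10855 probe sets, several for 396 and none for 1237. By gene identifier, 10839 of the 10855 matched a RefSeq table (GRCm38.p6). After leaving out 66 control probe sets, 10833 sets of 8251 genes remained, and a gene was read from its set of highest mean log2 signal. Arrays give no count depth, and having 2 of them limits the precision.

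With 1 group, no test was made and no p-value computed. Values are mean ± SD over 2 arrays, and the background threshold was computed per array. The lipogenic genes and lists were chosen with earlier results of these data known. Named are all lipogenic genes, the 3 highest and the lowest gene of each pathway list, 10 fixed regulators (5 measured) and the highest and lowest gene of each marker list, with genes added to complete a count named after their values were seen. Steps were tested on simulated data. Alternatives were quantile normalization, other rules for probe sets, other thresholds, log2(value + 32), no shift, a filter on low values and each array alone. Python 3.11.15, numpy 2.4.6, pandas 2.3.3 and matplotlib 3.10.9 were used.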

Additional observations from a re-analysis of the deposited data

How the results depend on the processing

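The 4 results on the lipogenic genes were recomputed in 28 alternatives, of which 22 stayed within set limits. Counts could differ by up to 1.5 times. The median percentile could move by under 0.23, the SD of the 2 arrays' medians. The median log2 difference could move by under 0.16, the median SD of the lipogenic genes' signal groups. That limit is larger than the size of the reported median, -0.10, so a reversed sign still counted as within it. The number above background on both arrays was 7 of 9 in every alternative except when a gene was read from its dimmest probe set, which left 6 because Scd1 was then read from its r set. The same alternative gave 1 gene over 2-fold, Scd1, in place of 0. The threshold mattered more for all genes than for the lipogenic ones: with the background at the 90th percentile 36.4% of all genes passed, and at the 99th percentile 16%, and 7 of 9 lipogenic genes passed at both. The median percentile, 91.6, was 93.3 with a gene's probe sets averaged, 93.4 with the dimmest set and 92.4 without suffixed sets, and 91.6 to 92.0 on each array alone. Among genes above background on both arrays, the 7 lipogenic genes that passed had a median percentile of 77.0. The median log2 difference between the arrays ran from -0.11 to 0.06, so its sign depended on which probe set was read. No paired analysis was possible because the samples form 1 group.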

Other observations

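Of the 75 measured genes in the rest of the route, 19 had more than 1 probe set. All sets were above background on both arrays for 5 of them, no set for 6, and some but not all sets for 8 (42.1%). Of the 2073 genes of the array with more than 1 set, the same 3 counts were 142, 1290 and 641 (30.9%). No set was above background for 31.6% of the 19 genes and for 62.2% of the 2073. The shares with some but not all sets above therefore rest on unlike bases and are no result about these genes. Differences between the shares were not tested. Gpd1, the cytosolic glycerol 3-phosphate dehydrogenase, gave 1972 on replicate 1 and 1953 on replicate 2 in one set and 45.0 and 76.6 in a set of suffix f. Lpin2, a phosphatidate phosphatase, gave 1398 and 1516 in one set and 109.3 and 19.0 in a set of suffix f. Mgll, monoacylglycerol lipase, gave 1753 and 1999 in one plain set and 97.6 and 103.8 in the other. Pklr, the liver pyruvate kinase, gave 543.1 and 671.8 in a set of suffix s and 515.0 and 503.0 in its plain set, all above background. These genes were chosen after their values were seen.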
